A study of Rattus norvegicus with 30 samples.

Results

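The neuropeptide genes followed here are 9 of the 17455 rows of the count table: the precursors Pomc, Penk, Pdyn, Crh, Hcrt, Nts, Tac1 and Adcyap1, and Rxfp3, the receptor of the peptide relaxin-3. They were taken by symbol and may have been selected on their genotype and diet-by-sex differences in these same libraries, so those values are a description, without a p-value, and a call there says only which members passed the fit and supports nothing. All 9 passed the filter on low counts. Gene expression was counted in 30 libraries of polyadenylated RNA from rat dorsal hippocampus. The rats were TgF344-AD, labelled alzheimer, or wildtype, female or male, and ate chow, the standard diet, or a western one. TgF344-AD rats are transgenic, and the mouse prion promoter that drives their transgenes is active in many cell types. The groups female_wildtype_chow, female_alzheimer_chow, male_wildtype_chow, male_alzheimer_chow, male_wildtype_western and male_alzheimer_western had 4 libraries each. The groups female_wildtype_western and female_alzheimer_western had 3 libraries each. Every group held libraries of cohort 1 (14 libraries) and of cohort 2 (16 libraries), and the animals' age is not given in the sources used here.

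Neuropeptides are made as long precursors that prohormone convertases cut in secretory granules, and the products act on G protein-coupled receptors. Penk and Pdyn give the opioid peptides enkephalin and dynorphin, and in the hippocampus Pdyn is best known from dentate granule cells. Pomc (melanocortins and beta-endorphin) and Hcrt (the orexins) are best known from hypothalamic neurons, and Pomc also from the pituitary. Crh (corticotropin-releasing hormone), Nts (neurotensin), Tac1 (substance P) and Adcyap1 (PACAP) are made by scattered hippocampal neurons or by neighbouring regions. Relaxin-3 comes from a brainstem nucleus whose fibres reach the hippocampus, and Rxfp3 is its receptor there.

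RefSeq's promoter table for the rat assembly GRCr8 held 7 of the 9 members, all but Penk and Crh. The 250 bases before the annotated start are printed for the 3 members called for genotype, in the gene's direction. Capitals mark the letters TATAAA, those of a TATA box, and TGACG or its reverse complement CGTCA, the short form of the cyclic AMP response element (CRE). The windows are chr2:61731807-61732056 (minus strand) for Rxfp3, chr10:86191525-86191774 (minus strand) for Hcrt and chr3:137366504-137366753 (minus strand) for Pdyn.
Rxfp3: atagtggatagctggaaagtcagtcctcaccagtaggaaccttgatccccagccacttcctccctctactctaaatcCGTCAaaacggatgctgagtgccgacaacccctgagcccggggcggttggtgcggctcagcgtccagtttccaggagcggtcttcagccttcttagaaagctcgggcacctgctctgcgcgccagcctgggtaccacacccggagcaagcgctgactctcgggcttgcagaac
Hcrt: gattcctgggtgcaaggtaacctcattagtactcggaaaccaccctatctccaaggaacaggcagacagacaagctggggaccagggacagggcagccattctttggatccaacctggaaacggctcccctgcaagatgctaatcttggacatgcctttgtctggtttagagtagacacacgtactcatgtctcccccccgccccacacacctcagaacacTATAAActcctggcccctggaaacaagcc
Pdyn: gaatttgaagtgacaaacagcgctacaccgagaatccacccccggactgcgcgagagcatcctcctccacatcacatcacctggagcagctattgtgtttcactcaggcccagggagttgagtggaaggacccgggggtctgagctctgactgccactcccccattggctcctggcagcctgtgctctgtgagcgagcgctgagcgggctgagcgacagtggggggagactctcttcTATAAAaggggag
Of the 7 windows 4 hold TATAAA, all in the gene's direction, starting 32 (Pomc), 29 (Hcrt), 13 (Pdyn) and 248 (Adcyap1) bases before the start. Rxfp3 holds no TATAAA in this window and 1 CGTCA, 173 bases before its start. Nts and Tac1 also hold CGTCA, 171 and 206 bases before the start, so 3 of the 7 windows hold this short form. Among the windows of the same length in the table (33469), 8.06% hold TATAAA in the gene's direction and 12.9% on either strand, and 18.2% hold TGACG on either strand. The full CRE, TGACGTCA, is in 1.59% of them and in none of the 7 member windows. These matches describe the letters and show no binding.

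The libraries held 13.9 to 31.4 M counts each, M standing for mega. The summed level of 7 CA1 markers ran from 1078 to 1641 CPM (counts per M of library counts, after TMM scaling). That of 8 dentate granule markers ran from 541 to 720 CPM. Among markers of neighbouring tissue, 12 thalamus markers summed to 127 to 174 CPM, 12 striatum markers to 170 to 240.05 CPM and 10 cortex markers to 269 to 317 CPM. Single genes carried much of these sums, which therefore do not measure the amount of each tissue. Ntng1, at a mean of 50.7 CPM, is on both the thalamus and the dentate granule list, and the striatum marker Ppp1r1b stood at 129 CPM. The thalamus marker Gbx2 and the striatum marker Isl1 had a count in only 6 and 5 of 30 libraries. Hippocampal lists were uneven as well, with the CA1 marker Wfs1 alone at a mean of 798 CPM. The CA1 marker Spink8 had a count in 20 of 30 libraries, and the dentate markers Lct and Tdo2 in 15 and 12. The 14 hypothalamic markers summed to 7.95 to 28.5 CPM, with Pmch at 0 in all 30 libraries, and the 12 choroid plexus markers to 5.14 to 70.5 CPM. The pituitary hormone genes Gh1 and Prl had no count in 19 and 16 of the 30 libraries and reached 25 and 115 counts in others. Libraries of 1 group differed from each other by more than counting noise in each pair. The labels do not state that each library is a separate animal, so p-values measure the spread between libraries.

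All 9 members were detected in all 30 libraries. Pdyn stood at 103 ± 12.99 CPM (SD, n = 30), Nts at 45.9 ± 5.36, Penk at 35.3 ± 2.82 and Adcyap1 at 12.2 ± 1.83. Rxfp3 stood at 4.06 ± 1.25 CPM, Tac1 at 3.13 ± 0.760, Crh at 2.65 ± 0.554, Pomc at 2.38 ± 1.13 and Hcrt at 1.28 ± 0.649. These levels are not scaled to transcript length, so they do not rank the genes. Behind Hcrt lay only 4 to 52 counts per library and behind Pomc 16 to 101, against 1433 to 2524 for Pdyn, so the values of Hcrt and Pomc carry the largest counting error.

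The spread between libraries differed between the members even after abundance was taken into account. edgeR estimates for each gene a biological coefficient of variation, the spread beyond counting noise within groups and cohorts. It was 37.2% for Hcrt, where genes of that abundance had 19.9% on the fitted trend, and 29.3% for Pomc against 16.4%. In squared units Hcrt stood 3.49 times and Pomc 3.19 times above the trend, more than 97.8% and 97.3% of the 12547 genes tested. Pdyn, at 8.27% against 5.24%, also lay high, above 95.3% of genes, and Nts above 91.9%. Tac1 lay 1.75 times and Adcyap1 1.55 times above the trend. Penk (5.93%), Crh (15.9%) and Rxfp3 (12.6%) lay at or below it. Relative to genes of their own abundance, Hcrt, Pomc and Pdyn thus varied between libraries of one group more than Rxfp3 or Penk did.

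**Figure D1:**
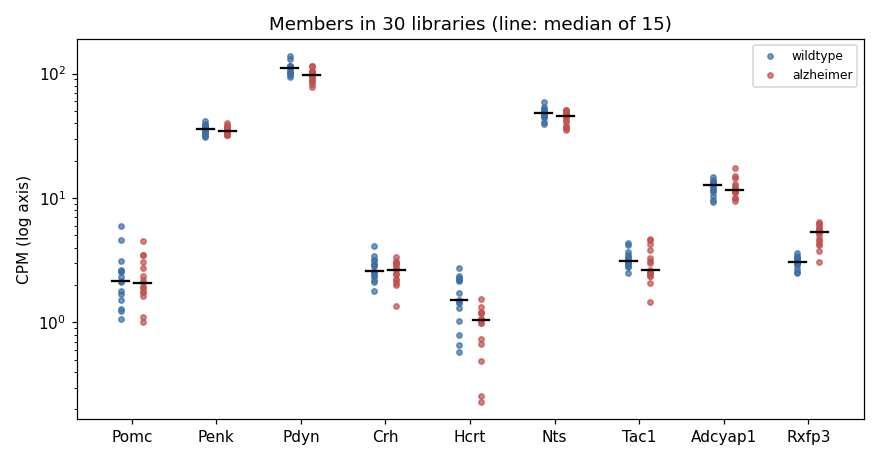
CPM on a log axis of the 9 members in each of the 30 libraries, blue for wildtype and red for alzheimer, with a black line at the median of 15 libraries. Hcrt spans 0.229 to 2.76 CPM and Pomc 1.005 to 5.94 CPM, while Penk stays between 31.1 and 41.6 CPM.

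The members may have been selected on genotype, so its values are given as a description, without a p-value. The edgeR quasi-likelihood fit over all genes called 3 of the 9 members at an adjusted p under 0.05, against 8.03% of all genes tested. Rxfp3 was higher in alzheimer, and Hcrt and Pdyn were lower. Fold changes are on the log2 scale, alzheimer against wildtype averaged over sex and diet, ± the standard error of the fit. The median over the 9 members was −0.084, against 0.0020 over all genes tested.

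Rxfp3 was the receptor in the set and had the least overlap between genotypes. No member was fully separated (0 of 9, against 0.159% of all genes), and Rxfp3 came closest. In wildtype it read 3.08, 3.04, 2.97 and 3.08 CPM in the female chow libraries (replicates 9, 13, 15 and 20) and 3.63, 2.69 and 3.27 CPM in the female western libraries (12, 17 and 22). Male wildtype libraries read 3.21, 3.37, 3.02 and 3.42 CPM on chow (4, 7, 26 and 29) and 2.49, 2.52, 3.22 and 2.88 CPM on the western diet (2, 5, 24 and 27). All 15 wildtype libraries thus lay between 2.49 and 3.63 CPM. In alzheimer it read 5.06, 4.201, 3.72 and 5.88 CPM in females on chow (10, 14, 16 and 19) and 6.18, 4.49 and 5.31 CPM in females on the western diet (11, 18 and 21). Male alzheimer libraries read 6.47, 6.13, 3.03 and 5.53 CPM on chow (3, 8, 25 and 30) and 5.33, 5.68, 4.29 and 4.65 CPM on the western diet (1, 6, 23 and 28). Of the 15 alzheimer libraries 14 lay above every wildtype library, and male_alzheimer_chow replicate 25, at 3.03 CPM, lay inside the wildtype range. Means were 5.06 ± 0.983 CPM in alzheimer and 3.06 ± 0.320 CPM in wildtype (SD, n = 15 each), a log2 fold change of 0.73 ± 0.091. The 4 alzheimer groups ranked above the 4 wildtype groups. The step from female_alzheimer_chow (4.71 ± 0.955 CPM) down to male_wildtype_chow (3.26 ± 0.180 CPM) was the 1 step between neighbours larger than 1 SD. The log2 fold change was 0.86 in cohort 1 alone and 0.58 in cohort 2 alone, in the same libraries that the choice may rest on. In bulk tissue a change in the number of cells that make a transcript and a change in RNA per cell cannot be told apart. None of the 7 lists of neighbouring tissue correlated with Rxfp3 across libraries at an adjusted p under 0.05. Group and cohort means were removed there, so this does not bear on the difference between genotypes. For genotype, edgeR called 3 of 10 cortex markers higher in alzheimer (4.14% of all genes), with a list median of 0.106. Of 11 tested striatum markers 1 was called higher. The hypothalamus, pituitary, thalamus, choroid plexus and ependyma lists had 0 called. Markers of the hippocampus itself also moved: 2 of 6 tested CA1 markers were called lower (3.89% of all genes), with a list median of −0.12. Of 6 tested dentate granule markers 1 was called lower, and of 9 tested interneuron markers 1. The CA2, CA3 and mossy cell lists had 0 called. The part of tissue composition in the Rxfp3 difference was not tested.

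The ligand of Rxfp3 and the other relaxin receptors gave little to set beside it. Relaxin-3 itself, Rln3, was below the filter at 0.198 CPM, with a count in 27 of 30 libraries. Of 8 relaxin family genes 6 had a row and 1 was tested, the relaxin receptor Rxfp1 at 1.57 CPM, which was not called for genotype.

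Hcrt, the orexin precursor, was lower in alzheimer. Female wildtype libraries read 1.03, 2.29, 2.35 and 1.51 CPM on chow (replicates 9, 13, 15 and 20) and 1.30, 1.74 and 1.43 CPM on the western diet (12, 17 and 22). Male wildtype libraries read 2.16, 0.663, 0.576 and 2.19 CPM on chow (4, 7, 26 and 29) and 1.47, 2.23, 0.791 and 2.76 CPM on the western diet (2, 5, 24 and 27). On chow the male wildtype libraries thus split into 2 low and 2 high values, while on the western diet they were spread between 0.791 and 2.76 CPM. Female alzheimer libraries read 1.04, 1.07, 0.984 and 1.21 CPM on chow (10, 14, 16 and 19) and 1.34, 0.229 and 0.995 CPM on the western diet (11, 18 and 21). Male alzheimer libraries read 1.19, 1.19, 0.668 and 1.07 CPM on chow (3, 8, 25 and 30) and 0.737, 1.56, 0.489 and 0.255 CPM on the western diet (1, 6, 23 and 28). The genotypes overlapped: 12 of 15 alzheimer libraries lay inside the wildtype range and 3 below it, while 7 of 15 wildtype libraries lay above every alzheimer library. Means were 0.935 ± 0.385 against 1.63 ± 0.681 CPM, a log2 fold change of −0.83 ± 0.23, and each of the 15 alzheimer libraries was below the mean of the wildtype libraries of its sex and diet. The 4 alzheimer groups ranked below the 4 wildtype groups, and no step between neighbours was larger than 1 SD. The log2 fold change was −0.39 in cohort 1 alone and −1.28 in cohort 2 alone, and the call was lost in cohort 1. It was also lost, at −0.59, without the 6 libraries holding at least 20 counts of the pituitary genes Gh1 and Prl.

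Hcrt followed ependymal markers across libraries. Its residual log2 level, with group and cohort means removed, correlated with the mean of 7 tested ependymal markers (n = 30). Pearson's r was 0.731 (adjusted p = 0.000315) and Spearman's rho 0.695 (adjusted p = 0.00189), by permutation and adjusted over 63 pairs of members and lists. Shuffling treated the 30 residuals as independent although means had been removed from them, so these p-values are too small. Without the 2 libraries farthest from the list's median (18 and 24) r was 0.650. The genes most like Hcrt over the 30 libraries, among 11630 genes of at least 1 CPM, were Ccdc40 (rho 0.783), Dnah1 (0.754) and Snx22 (0.750). Ccdc40 and Dnah1 encode parts of motile cilia. The summed level of 8 ependymal markers ran from 15.3 to 36.1 CPM in alzheimer (median 24.6) and from 17.8 to 39.8 CPM in wildtype (median 27.7). No ependymal marker was at 0, apart from Mia, which had a count in 26 of 30 libraries. All 7 tested markers were lower in alzheimer by sign, with a median of −0.29, and 0 of them were called. With the ependymal mean as a covariate, added after seeing the data, the log2 fold change of Hcrt was −0.48 and was no longer called. Hypothalamic markers, the tissue Hcrt neurons come from, gave r = 0.134 (adjusted p = 0.799) and rho = 0.130 (adjusted p = 0.820, permutation). All these values share library composition and depth, and the part of ependymal tissue in the Hcrt difference was not tested beyond that fit.

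**Figure D2:**
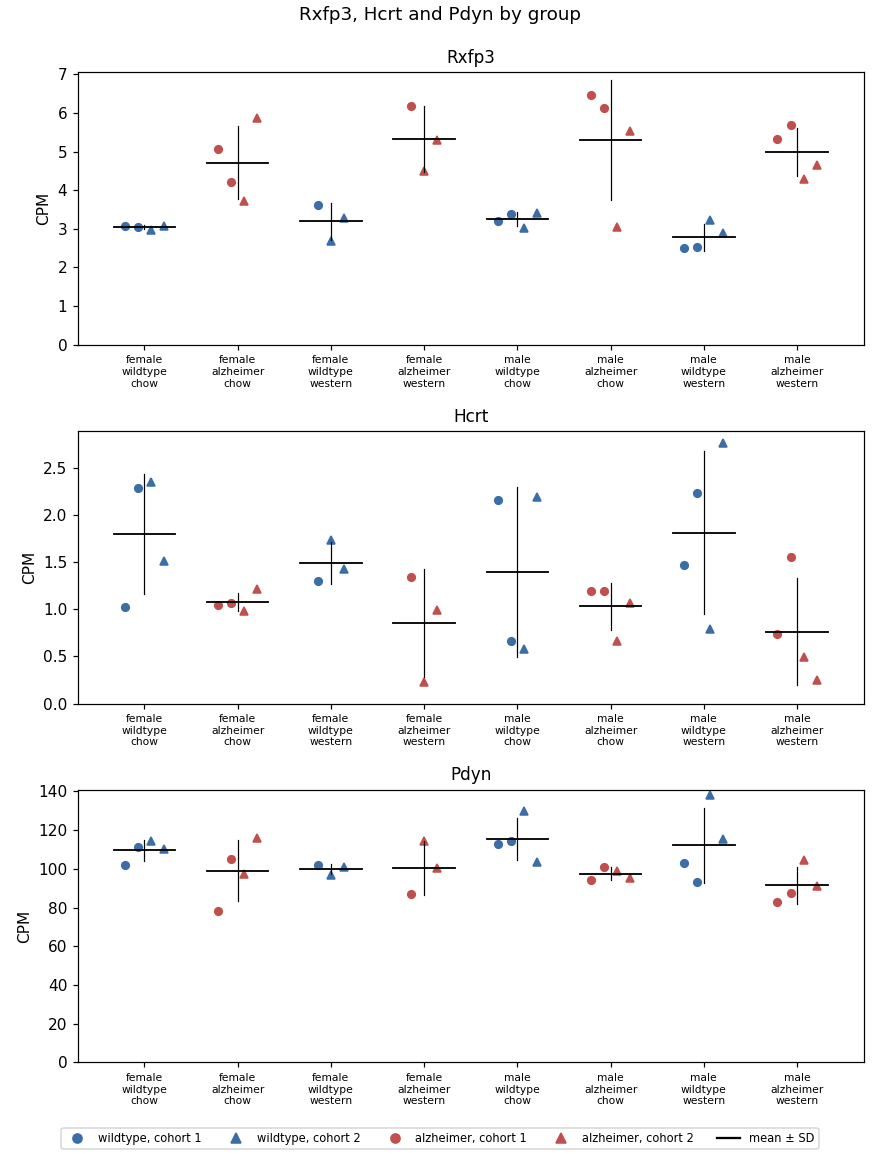
CPM of Rxfp3, Hcrt and Pdyn in the 8 groups, 1 point per library (circles for cohort 1, triangles for cohort 2), with the mean and SD. Of 15 alzheimer libraries 14 lie above all wildtype libraries for Rxfp3, whereas the genotypes overlap for Hcrt and Pdyn.

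Pdyn, the dynorphin precursor, was lower in alzheimer by a small amount. Female wildtype libraries read 102, 111, 114 and 111 CPM on chow (replicates 9, 13, 15 and 20) and 102, 97.0 and 101 CPM on the western diet (12, 17 and 22). Male wildtype libraries read 113, 114, 130 and 104 CPM on chow (4, 7, 26 and 29) and 103, 93.0, 138 and 115 CPM on the western diet (2, 5, 24 and 27). Wildtype males thus reached the highest values of the series. Female alzheimer libraries read 78.1, 105, 97.4 and 116 CPM on chow (10, 14, 16 and 19) and 86.9, 114 and 100.3 CPM on the western diet (11, 18 and 21). Male alzheimer libraries read 94.0, 101, 99.1 and 95.5 CPM on chow (3, 8, 25 and 30) and 82.8, 87.3, 105 and 91.2 CPM on the western diet (1, 6, 23 and 28). Of 15 alzheimer libraries 10 lay inside the wildtype range and 5 below it, and 2 wildtype libraries lay above every alzheimer library. Means were 96.9 ± 10.7 against 109.9 ± 12.005 CPM, a log2 fold change of −0.17 ± 0.045. The size was −0.22 in cohort 1 alone and −0.15 in cohort 2 alone, and the call was lost in each, as it was without the 6 libraries holding Gh1 and Prl counts (−0.15). In the group order female_alzheimer_western (101 ± 13.8 CPM) stood above female_wildtype_western (99.9 ± 2.53 CPM), and no step between neighbours exceeded 1 SD.

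Pdyn ran against markers of several neighbouring tissues. Its residual level correlated negatively with 11 tested thalamus markers, with r = −0.740 (adjusted p = 0.000315) and rho = −0.756 (adjusted p = 0.00126, permutation, n = 30), and r = −0.728 without replicates 11 and 18. Striatal markers gave r = −0.622 (adjusted p = 0.00735) and rho = −0.585 (adjusted p = 0.0193), and r = −0.572 without replicates 11 and 14. Ependymal markers gave r = −0.568 (adjusted p = 0.0142) and rho = −0.512 (adjusted p = 0.0437), and r = −0.454 without replicates 18 and 24. All these p-values are too small, as for Hcrt, and the weaker pairs may not pass a test that allows for the removed means. The genes most like Pdyn were Plppr2 (rho 0.868), R3hdm4 (0.813) and Wnt4 (0.790). The medians of the summed thalamus markers were 146 (alzheimer) and 147 CPM (wildtype). With the thalamus mean as a covariate the genotype difference of Pdyn was −0.18, and with the ependymal mean it was −0.22. The part of tissue composition in the Pdyn difference was otherwise not tested. Among dentate granule markers 4 of 6 tested were higher in alzheimer by sign, with a list median of 0.035. The synaptic organiser C1ql2 was the 1 called by edgeR, and it was lower (−0.27 ± 0.043, edgeR adjusted p = 5.75e-05). Over all genes 3.89% were called lower. In GRCr8 a non-coding gene overlaps the end of Pdyn. The build and strand setting of the counts are not given, so whether reads there were mixed is not known.

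**Figure D3:**
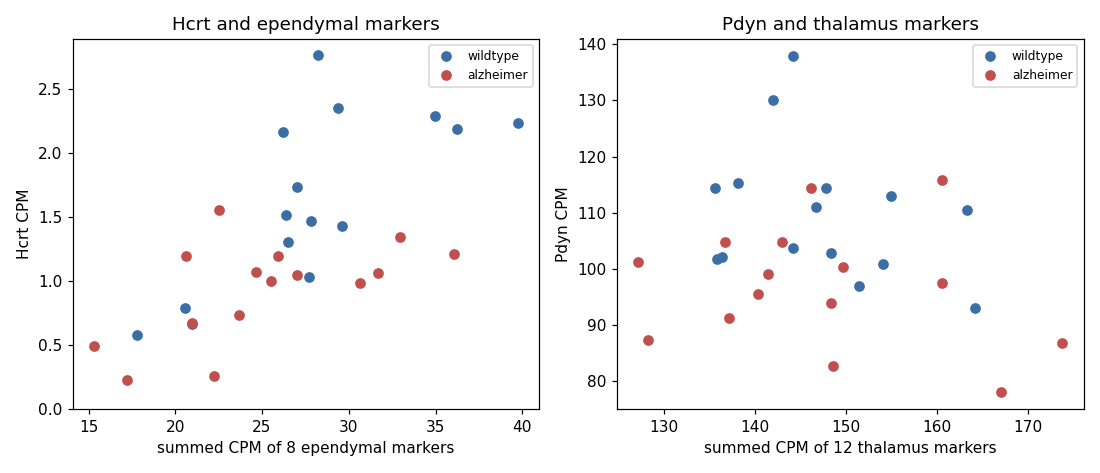
Each point is 1 library, blue for wildtype and red for alzheimer. The left panel plots Hcrt CPM against the summed CPM of 8 ependymal markers, where libraries low in markers are low in Hcrt, and the right panel plots Pdyn CPM against the summed CPM of 12 thalamus markers, on axes that do not start at 0.

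The other 6 members were not called for genotype. The log2 differences were −0.12 ± 0.047 for Nts, −0.11 ± 0.13 for Tac1, −0.084 ± 0.12 for Crh, −0.022 ± 0.067 for Adcyap1, −0.020 ± 0.036 for Penk and 0.026 ± 0.18 for Pomc. The 2 opioid precursors of the hippocampus therefore had unequal values, Pdyn lower and Penk within 1 standard error of 0, although the difference between them was not tested. Their residual levels had a Pearson r of 0.444 across the 30 libraries.

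Nts, the neurotensin precursor, was the member with the smallest p for genotype by sex, the difference of the genotype effects between females and males. Alzheimer females stood at 40.9 ± 5.01 CPM and wildtype females at 49.8 ± 4.67 CPM (SD, n = 7 each). Alzheimer males stood at 47.1 ± 4.24 CPM and wildtype males at 45.7 ± 4.36 CPM (n = 8 each). The difference, −0.33 ± 0.094, had an unadjusted p = 0.00118 and did not pass over all genes (edgeR adjusted p = 0.999). By edgeR 0 of 9 members were called for genotype by sex, against 0% of all genes, and 3 had an unadjusted p under 0.05 (Nts, Penk and Pdyn; 4.21% of all genes). DESeq2 and limma-voom also called 0, with 2 under that unadjusted limit each. For genotype by diet edgeR, DESeq2 and limma-voom each called 0 of 9 (0% of all genes by edgeR), with 0 under an unadjusted p of 0.05 (3.55% of all genes by edgeR).

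Nts was highest in female_wildtype_chow (51.4 ± 5.46 CPM, SD, n = 4) and lowest in female_alzheimer_western (38.0 ± 3.70 CPM, n = 3). The enkephalin precursor Penk was highest in male_wildtype_chow (37.2 ± 0.668 CPM, SD, n = 4) and lowest in female_wildtype_chow (33.8 ± 3.47 CPM, n = 4). Adcyap1 was highest in female_wildtype_western (13.6 ± 0.276 CPM, SD, n = 3) and lowest in male_wildtype_chow (10.7 ± 1.504 CPM, n = 4). Tac1, which encodes substance P, was highest in male_wildtype_chow (3.84 ± 0.513 CPM, SD, n = 4) and lowest in male_alzheimer_chow (2.69 ± 1.36 CPM, n = 4). Crh was highest in female_wildtype_chow (3.22 ± 0.745 CPM, SD, n = 4) and lowest in female_alzheimer_chow (2.32 ± 0.751 CPM, n = 4). Between neighbours in the order, steps larger than 1 SD were found for Nts, between female_alzheimer_chow and the lowest group, and for Tac1, below its highest group. Penk, Adcyap1 and Crh had none.

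Pomc stood out along diet by sex, the difference between the diet effect in females and in males. This contrast too is given as a description, since the call of Pomc may have been known when the genes were chosen: 1 of 9 members was called by edgeR, against 1.23% of all genes (0.781% higher, 0.446% lower). Pomc was among the lower. In females Pomc read 1.79, 2.11, 4.63 and 3.14 CPM in wildtype on chow (replicates 9, 13, 15 and 20) and 1.701, 1.23 and 1.07 CPM on the western diet (12, 17 and 22). Female alzheimer libraries read 2.75, 2.07, 2.19 and 1.92 CPM on chow (10, 14, 16 and 19) and 1.63, 1.10 and 2.37 CPM on the western diet (11, 18 and 21). In females 5 of 6 western libraries were thus below every chow library. Male wildtype libraries read 2.16, 1.51, 2.30 and 1.28 CPM on chow (4, 7, 26 and 29) and 2.64, 2.52, 2.60 and 5.94 CPM on the western diet (2, 5, 24 and 27). Male alzheimer libraries read 1.76, 1.76, 3.46 and 1.005 CPM on chow (3, 8, 25 and 30) and 3.46, 4.49, 1.90 and 3.06 CPM on the western diet (1, 6, 23 and 28). In males the order was the opposite, and 5 of 8 chow libraries were below every western library. Means were 2.58 ± 0.945 CPM on chow and 1.52 ± 0.495 CPM on the western diet in females (n = 8 and 6), and 1.90 ± 0.760 and 3.33 ± 1.31 CPM in males (n = 8 each). The difference of the diet effects was −1.58 ± 0.36 on the log2 scale. The highest group was male_wildtype_western (3.42 ± 1.68 CPM) and the lowest female_wildtype_western (1.33 ± 0.327 CPM), and no step between neighbouring groups exceeded 1 SD. The value was −1.23 in cohort 1 alone and −1.7 in cohort 2 alone, called in neither, and −1.43 without female_wildtype_chow replicate 15, where it was not called.

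Pituitary hormone counts lay beside the high Pomc values in some libraries. Gh1 (growth hormone) and Prl (prolactin) together reached at least 20 counts in 6 libraries: 140 in replicate 10, 81 in 15, 75 in 13, 24 in 28, 22 in 27 and 21 in 19. Replicates 10, 13, 15 and 19 are females on chow, and 27 and 28 are males on the western diet, the 2 sides on which Pomc was high. Their part in the Pomc difference was not tested beyond leaving these libraries out. The highest Pomc values of each sex, 4.63 CPM in replicate 15 and 5.94 CPM in replicate 27, were among them. Replicates 10, 13, 19 and 28 read 2.75, 2.11, 1.92 and 3.06 CPM. High Pomc also occurred with at most 1 hormone count, at 3.46, 4.49 and 3.46 CPM in the male replicates 1, 6 and 25. Without these 6 libraries, chosen after seeing the data, the Pomc difference was −1.21 and was not called. Among the remaining libraries the median of Pomc was 2.13 CPM on chow and 1.43 CPM on the western diet in females, and 1.76 and 2.62 CPM in males. The 9 pituitary markers summed to 2.25 to 7.35 CPM in females on chow and 2.12 to 4.12 CPM in males on the western diet, against 2.02 to 4.17 CPM in females on the western diet and 1.76 to 3.89 CPM in males on chow. Cga, the common subunit of pituitary glycoprotein hormones, had a count in 5 of 30 libraries and Pou1f1, which drives Gh1 and Prl, in 6. Across the 30 libraries, with group and cohort means removed, Pomc and the 4 tested pituitary markers gave r = 0.233 (adjusted p = 0.573) and rho = 0.202 (adjusted p = 0.586, permutation). Without the group means these values do not bear on the diet-by-sex difference. For diet by sex the 4 tested pituitary markers had a median of −3.04, against −0.0044 over all genes. By sign 1 of 4 was higher, and 0 were called. Gh1 and Prl are among these 4, with no count in 19 and 16 of 30 libraries. They passed the filter through the few libraries with counts, mostly females on chow and males on the western diet. The filter thus helped set their sign, and the median is no measure of pituitary tissue. The 14 hypothalamic markers had medians of 13.2 and 11.8 CPM in females on chow and the western diet and of 10.6 and 11.9 CPM in males. In GRCr8 the end of Pomc overlaps Efr3b. The build that was counted and the strand setting are not given, so whether reads there were mixed is not known.

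**Figure D4:**
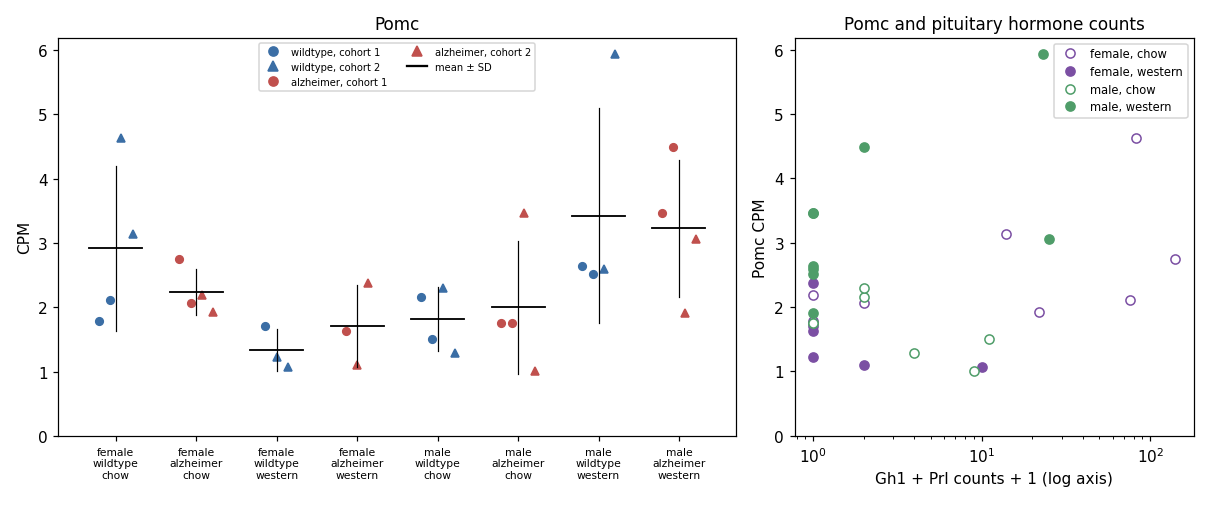
The left panel plots Pomc CPM in the 8 groups with mean and SD, and the right panel plots Pomc CPM against the sum of Gh1 and Prl counts plus 1 on a log axis. Females are higher on chow and males on the western diet, and the 6 libraries with at least 20 hormone counts are females on chow and males on the western diet.

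Diet and sex on their own called no member. For diet, western against chow, 0 of 9 members were called by edgeR, DESeq2 or limma-voom (edgeR called 0.00797% of all genes), and 0 had an unadjusted p under 0.05 with any of the 3 tools (5.55% of all genes by edgeR). The edgeR adjusted p ran from 0.930 to 0.997. The range of likely values, 2 standard errors either side, reached from −0.19 to 0.17 for Rxfp3 and from −0.16 to 0.017 for Pdyn. For Hcrt it was wider, from −0.63 to 0.30. For sex, female against male, 0 of 9 were called by each tool (0.837% of all genes by edgeR, 0.518% higher and 0.319% lower in females). By edgeR 1 member had an unadjusted p under 0.05, against 14.8% of all genes, so by edgeR the members' share was not above the background. DESeq2 had 2 members under that limit and limma-voom 0, and their shares over all genes are not given here. The member by edgeR, Adcyap1, the PACAP precursor, stood at 12.9 ± 1.48 CPM in females (n = 14) and 11.6 ± 1.94 CPM in males (n = 16). Its log2 difference was 0.15 ± 0.067 (edgeR adjusted p = 0.301), higher in 12 of 14 female libraries. Cohort, which is named in the labels, called 0 members by edgeR (0.0877% of all genes, 0.0717% higher in cohort 2), with 2 under an unadjusted p of 0.05 (12.6% of all genes). Pdyn stood at 108 ± 12.8 CPM in cohort 2 (n = 16) and at 98.1 ± 11.4 CPM in cohort 1 (n = 14), a log2 difference of 0.15 ± 0.045 that did not pass (edgeR adjusted p = 0.138).

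**Figure D5:**
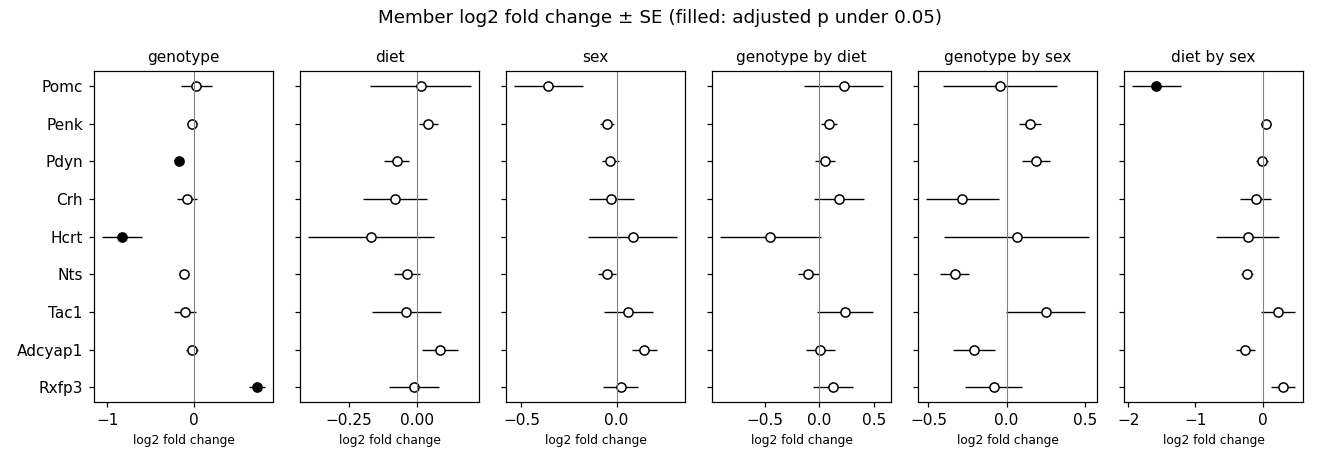
Log2 fold change ± standard error of the 9 members in 6 contrasts from 1 edgeR fit, with filled points for an adjusted p under 0.05 and a separate horizontal scale in each panel. Filled points are Rxfp3, Hcrt and Pdyn for genotype and Pomc for diet by sex.

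The genes with the residual level most like each of the other members are given with their Spearman rho over the 30 libraries. For Rxfp3 they were Ulk3 (0.691), Prr3 (0.668), Atp6v0a2 (0.647). For Pomc they were Bfsp1 (0.651), LOC103692984 (0.627), Nek1 (0.611), and for Penk Grsf1 (0.725), Trim24 (0.724), Rcn1 (0.677). Nts was most like Ptn (0.724), Ass1 (0.691), Taf7 (0.684), and Tac1 most like Mrpl32 (0.75), Vwc2 (0.743), Gli4 (0.71). Crh was most like Cmpk2 (0.713), Ppm1d (0.698), Nid2 (0.691), and Adcyap1 most like Caskin1 (0.696), RGD1560289 (0.646), Dlgap4 (0.644). These are the highest of 11630 genes ranked, the points share library and depth, and no test is attached.

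The receptors of the member peptides were measured as well. Of 18 receptor genes 16 were tested and 0 were called for genotype by edgeR (median 0.026), with 7 at an unadjusted p under 0.05 (22.3% of all genes). Hcrtr1 and Hcrtr2, the orexin receptors, stood at 4.41 and 3.21 CPM and differed between genotypes by 0.079 ± 0.11 (edgeR adjusted p = 0.740) and −0.065 ± 0.12 (adjusted p = 0.818). Oprk1, the receptor of dynorphin, stood at 1.48 CPM with a difference of 0.22 ± 0.18 (adjusted p = 0.504). The neurotensin receptor Ntsr2 stood at 127 CPM with a difference of −0.079 ± 0.028 (adjusted p = 0.0824), and the PACAP receptor Adcyap1r1 at 290 CPM with one of 0.012 ± 0.023 (adjusted p = 0.818).

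Genes that process and pack peptides had 4 of 14 members called for genotype, 1 higher (4.14% of all genes) and 3 lower (3.89% of all genes), with a median of −0.040. The convertase Pcsk2 rose from 269 ± 11.2 to 284 ± 11.4 CPM (log2 fold change 0.077 ± 0.022, edgeR adjusted p = 0.0254). The granins Scg2 and Scg3 and the granule protein Vgf fell, Scg2 from 500 ± 24.8 to 469 ± 14.8 CPM (edgeR adjusted p = 0.00530) and Scg3 from 359.6 ± 19.996 to 342 ± 17.3 CPM (adjusted p = 0.0384). Vgf fell from 62.1 ± 5.02 to 55.8 ± 4.88 CPM (−0.15 ± 0.040, adjusted p = 0.0171). Among 39 other neuropeptide genes 38 had a row and 21 were tested. Of these edgeR called 0 higher (4.14% of all genes) and 2 lower (3.89% of all genes) in alzheimer, with a median of −0.026. By sign 8 of the 21 were higher. Cort, the cortistatin precursor of interneurons, fell from 3.97 ± 0.843 to 3.04 ± 0.575 CPM (−0.37 ± 0.10, edgeR adjusted p = 0.0217), and the natriuretic peptide gene Nppa fell from 7.35 ± 1.27 to 5.78 ± 0.881 CPM (−0.34 ± 0.075, adjusted p = 0.00294). Neuronal activity genes such as Fos and Arc had 0 of 12 called for genotype by edgeR (median 0.016) and 0 called for diet (median 0.069). In these 4 lists 0 genes were called for diet, sex or diet by sex.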

How the data were processed

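The authors deposited raw counts for each gene symbol, with whole numbers and unequal column totals, and each column was matched to its sample by name. Trimming with cutadapt and alignment with STAR 2.7.0a are recorded in the submitters' processing notes. The counting tool, strand setting, build and annotation: not given in the sources used here.

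After filterByExpr (minimum count 10, minimum total 15), 12547 of 17455 genes were tested with edgeR 4.0.16 (R 4.3.3): TMM factors, a coefficient per group and one for cohort, the quasi-likelihood F test, and Benjamini-Hochberg adjustment over all genes tested, with calls under 0.05. Relations across libraries used 100000 two-sided permutations, whose smallest p is 1e-05. The genotype test was checked on data simulated with the spread of each gene on the fitted trend. That check does not cover members with a spread above the trend, such as Hcrt, Pomc and Pdyn.

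The members and lists were chosen with earlier results of these data known. Named genes are the members, up to 4 called genes per list and contrast, receptors of the peptides, and the 3 tested genes of at least 1 CPM most alike to each member. Sst, Cck, Vip and Npy were named after their values were seen. Alternatives were RLE scaling, other filters, DESeq2 1.42.0, limma 3.58.1 voom, no cohort term, each cohort alone and each library left out; others were added after seeing the data.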

Additional observations from a re-analysis of the deposited data

Results flagged for a closer look

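Within the groups of 4 libraries, 54 combinations of member and group were examined for a library far from the rest, and 2 stood out, where chance gives about 1 in 20. Pomc read 5.94 CPM in male_wildtype_western replicate 27, far above the other 3 libraries of its group. That library held 22 counts of Gh1 and Prl. Nts read 37.8 CPM in male_alzheimer_chow replicate 3, below the other 3 libraries of its group. The diet effect on Pomc differed between females and males by −1.58 on the log2 scale, and this difference may have been known when the genes were chosen.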

How the results depend on the processing

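No paired analysis was possible because the running numbers of the libraries are unique and no 2 groups share one. The member counts named here are at an adjusted p under 0.05. Of the 9 members, 3 were called for genotype: leaving out each library in turn gave 3 to 3, cohort 1 alone gave 1, and leaving out the 6 libraries with Gh1 and Prl counts gave 1, in both cases Rxfp3. Hcrt was at −0.39 and −0.59 in these fits and Pdyn at −0.22 and −0.15. For diet by sex 1 member, Pomc, was called. Cohort 1 alone, cohort 2 alone, the fit without the 3 libraries highest in choroid plexus markers (30, 20 and 11; −1.49) and the fit without the 6 libraries with Gh1 and Prl counts each gave 0. Leaving out each library in turn gave 0 to 1, with 0 without replicate 15. For cohort 0 members were called, against 1 (Pdyn) without a filter and 1 with DESeq2. Of 63 relations to neighbouring-tissue lists 4 passed by both coefficients, against 1 with group and cohort means kept. In a second family of 54 pairs with hippocampal field and interneuron lists, 2 passed (Nts with dentate granule and Pdyn with mossy cell markers). The permutation did not allow for the removed means, so the 4 and the 2 may be too high. Fits of part of the libraries have fewer samples, and the cause of each loss was not tested. Of 2619 recomputed member values 0 reversed a called direction, 11 lost a call and 2 gained one. A further 22, not called, changed sign and shifted by more than 1 standard error. Counts of 4 to 52 limit what Hcrt can show.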

Other observations

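Peptide genes of hippocampal interneurons had these values in the count table. Sst (somatostatin) stood at 86.8 CPM and Cck (cholecystokinin) at 256 CPM, while Npy (neuropeptide Y) stood at 0.306 CPM, with a count in each of the 30 libraries, and was below the filter on low counts. Whether the low Npy value reflects expression or the annotation and counting of that row could not be settled from the counts, so it is not read as a level of expression. Vip stood at 11.3 CPM.

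The residual level of Nts ran against 6 tested dentate granule markers (r = −0.600, adjusted p = 0.0113; rho = −0.602, adjusted p = 0.0124; permutation, 54 pairs, n = 30), with r = −0.531 without replicates 5 and 29. Pdyn ran against 6 mossy cell markers (r = −0.647, adjusted p = 0.00756; rho = −0.671, adjusted p = 0.00810), with r = −0.573 without replicates 10 and 20. These pairs were added after seeing the data. Their p-values are too small, because the permutation did not allow for the removed means.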
